A study of Mus musculus with 6 samples.

Results

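Irf1 and 9 interferon-inducible GTPase genes were followed in bone marrow of mice with colitis. The GTPases were the guanylate-binding protein genes Gbp2, Gbp3, Gbp7 and Gbp9 and the immunity-related GTPase genes Irgm1, Irgm2, Igtp, Ifi47 and Iigp1. They were taken as a named list, matched by gene identifier, and all 10 had a row among the 56750 of the deposited table. The samples were RNA of cells sorted as Lin- Sca1+ cKit+ (LSK), a fraction enriched for blood stem and early progenitor cells, from femurs of C57BL/6 mice. Mice with DSS-induced colitis, labelled DIC, were given 2.5% dextran sulfate sodium (DSS), an agent that injures the colon lining, over 5 days. Controls are labelled only as control. The labels give 3 mice and 3 libraries per group, named here DIC 1, 2 and 3 and control 1, 2 and 4 after the column numbers, and no age or sex. Nothing ties single libraries to single mice, and a p-value here speaks only to how far the sequenced libraries scatter, which may be technical in part.

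Expression was given as TPM, a share of all transcripts scaled for gene length, so that levels of different genes can be compared. TPM keeps no sequencing depth, which is therefore unknown, and 20474 to 22720 rows lay above 0 in a library. Sort markers were present at moderate levels. Kit was at 82.3 to 95.2 TPM in DIC and 54.2 to 99.5 TPM in control, and Ly6a, which encodes Sca1, at 15.5 to 23.8 TPM in DIC and 19.7 to 49.9 TPM in control. A lineage-negative sort should hold few granulocytes, yet the summed TPM of 15 neutrophil markers made up 22.5%, 15.4% and 18.9% of the total for DIC 1 to 3, against 4.17%, 12.5% and 2.98% for controls 1, 2 and 4. Among them S100a8 was at 63966 to 105476 TPM in DIC and 13283 to 52974 TPM in control, S100a9 at 51010 to 69749 TPM in DIC and 10554 to 41595 TPM in control, and Ltf at 2306 to 3272 TPM in DIC and 169 to 1458 TPM in control. Mpo, of the granulocyte precursors, was at 10026 to 12402 TPM in DIC and 11639 to 13183 TPM in control. The levels below are thus those of the sorted tube as sequenced and cannot be placed in stem cells.

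Interferon-gamma binds a receptor of the Ifngr1 and Ifngr2 chains, whose kinases are Jak1 and Jak2. The signal acts on DNA through GAS elements, among them that of Irf1, and the Irf1 protein in turn binds ISRE and related elements of later genes. Guanylate-binding proteins are large GTPases that assemble on microbes and on the vacuoles around them. Immunity-related GTPases (IRGs) fall into a regulatory group, Irgm1, Irgm2 and Igtp (also called Irgm3), which guards the cell's own membranes, and an effector group, to which Ifi47 (Irgd) and Iigp1 (Irga6) belong and which attacks pathogen vacuoles. Irgm1 is also known from mouse knockouts as a gene needed to restrain proliferation of hematopoietic stem cells.

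Most of the 10 genes lay at a narrow, low level in DIC and at higher and more scattered levels in control. In TPM summed over the 10 genes, the DIC libraries held 172, 175 and 185, against 233, 247 and 394 in controls 1, 2 and 4. Every DIC library was below every control. Fitted with limma on log2(TPM + 1) over all 13496 genes that reached 1 TPM in at least 3 libraries, 8 of 10 members had negative log2 fold changes of DIC minus control, with a median of -0.50 beside -0.08 over all tested genes. At a Benjamini-Hochberg adjusted p under 0.05 limma called 0 members, where it called 0.0593% of all tested genes in either direction and 0.0222% as lower in DIC. At an unadjusted p under 0.05 it marked 4 members, Irf1, Gbp3, Gbp7 and Igtp, all lower in DIC, where 20.2% of tested genes were marked in either direction and 13.8% as lower. The same 4 genes were lower in DIC with no overlap between groups, which held for 18.4% of tested genes, and 0 members were higher without overlap, which held for 7.08%. With 3 libraries in each group, the smallest p that exact permutation allows is 0.1, and no gene was tested that way. In bulk RNA, fewer cells of a type and less RNA per cell cannot be told apart.

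**Figure D1:**
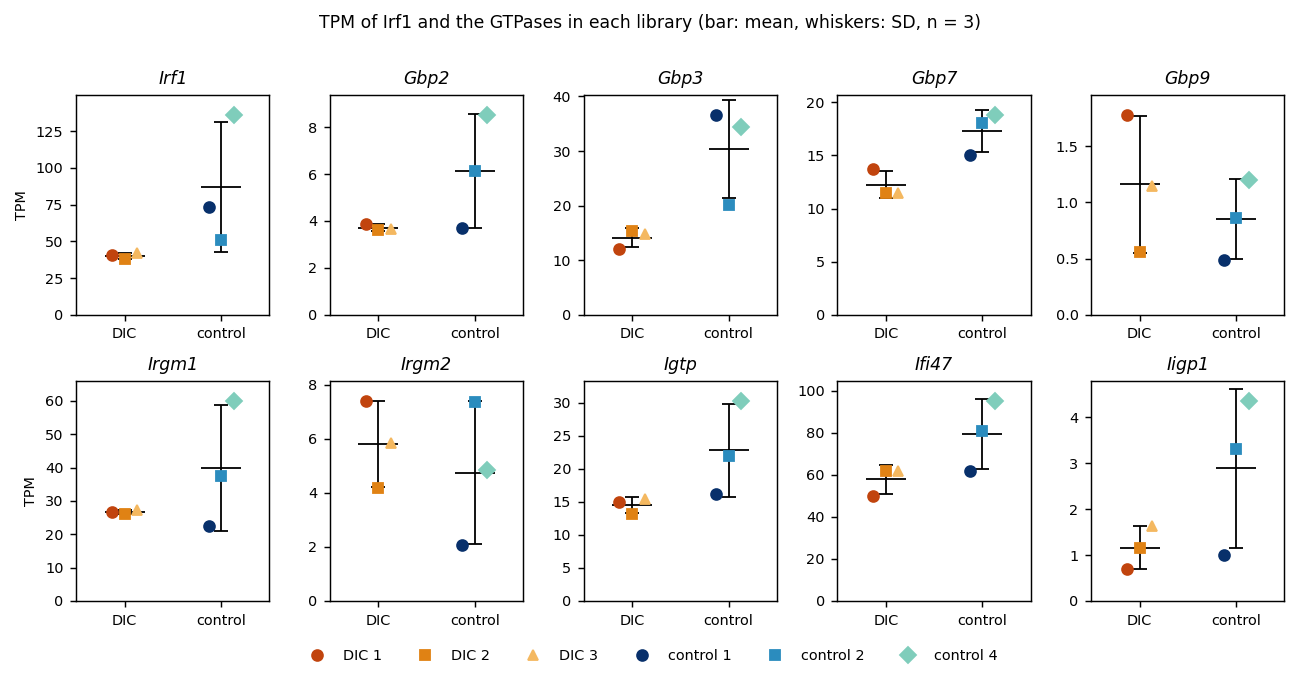
TPM of each of the 10 genes (one panel per gene, axis from 0) in the DIC and control libraries, with points for libraries, a bar for the mean and whiskers for the SD of 3 libraries. For Irf1, Gbp3, Gbp7 and Igtp all DIC points lie below all control points, whereas Gbp9 and Irgm2 have the higher mean in DIC.

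Promoter sequences are shown because most of these genes lay lower together in DIC and because interferon elements are known to control them. RefSeq's promoter table (GRCm38.p6) had entries for 8 of the 10 members. Gbp9 and Iigp1 were without entry. The 250 bases before each listed start were searched on both strands for the GAS letters TTCNNNGAA, which read alike on both, and for an ISRE core, taken as GAAA, any 2 bases and GAAA again. GAS was found in 4 of the 10 member windows, from 4 genes, and in 7.02% of all 32851 windows of the table. The ISRE core was in 6 of the 10, from 6 genes, and in 2.98% of all windows. Printed 5′ to 3′ in the direction of the gene, with matches in capitals, are the windows of the 4 members that separated the groups and of Irgm2:
Irf1 (chr11:53769764-53770013, plus strand): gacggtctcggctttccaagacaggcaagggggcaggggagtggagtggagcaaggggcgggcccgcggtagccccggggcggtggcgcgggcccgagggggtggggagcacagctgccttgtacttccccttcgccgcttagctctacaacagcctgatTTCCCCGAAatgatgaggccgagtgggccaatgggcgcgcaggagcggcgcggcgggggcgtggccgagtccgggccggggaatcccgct
Gbp3 (chr3:142559794-142560043, plus strand): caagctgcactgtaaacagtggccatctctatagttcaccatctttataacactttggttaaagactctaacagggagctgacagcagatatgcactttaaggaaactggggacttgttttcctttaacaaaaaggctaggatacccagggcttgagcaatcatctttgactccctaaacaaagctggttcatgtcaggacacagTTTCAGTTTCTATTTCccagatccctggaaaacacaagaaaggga
Gbp7 (chr3:142530086-142530335, plus strand): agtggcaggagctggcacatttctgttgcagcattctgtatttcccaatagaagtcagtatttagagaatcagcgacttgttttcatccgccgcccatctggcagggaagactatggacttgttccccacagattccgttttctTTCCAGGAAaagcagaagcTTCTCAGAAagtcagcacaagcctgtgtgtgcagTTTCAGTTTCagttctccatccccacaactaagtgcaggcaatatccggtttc
Igtp (chr11:58199306-58199555, plus strand): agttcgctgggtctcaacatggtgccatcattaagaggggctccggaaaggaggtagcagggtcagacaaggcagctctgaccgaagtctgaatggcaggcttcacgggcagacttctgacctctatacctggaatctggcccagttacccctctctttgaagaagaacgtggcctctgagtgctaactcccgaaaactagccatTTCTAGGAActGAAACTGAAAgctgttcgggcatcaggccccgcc
Irgm2 (chr11:58214727-58214976, plus strand): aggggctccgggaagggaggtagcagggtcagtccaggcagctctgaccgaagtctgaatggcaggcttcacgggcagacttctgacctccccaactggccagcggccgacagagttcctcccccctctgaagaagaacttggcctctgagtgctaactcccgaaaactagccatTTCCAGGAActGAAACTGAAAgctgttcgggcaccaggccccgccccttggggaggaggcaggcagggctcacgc

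The window of Irf1 held a GAS match 90 to 82 bases before the start and no ISRE core. That of Gbp3 held no GAS match and a pair of overlapping ISRE cores between 45 and 30 bases before the start. Gbp7 had both kinds, with GAS matches from 106 and from 87 bases and an ISRE core from 53 bases before the start. Igtp and Irgm2 each held a GAS match and an ISRE core close behind it, and their windows were 88.2% identical over 220 aligned positions. In the libraries Igtp was lower in every DIC library than in any control, by a gap of 0.85 TPM, and Irgm2 overlapped. A difference between the 2 genes was not tested, and they share exon bases. Gbp2 had 1 ISRE core, from 59 bases, and Irgm1 had 2 that overlap, from 30 and from 24 bases before the start. Ifi47 had neither, nor did the second listed starts of Irf1 and Gbp3. For Gbp7 and Irgm2 the bases right after the listed start were not found in an annotated transcript of the gene. Their distances are thus from the RefSeq start alone. A match describes letters in these windows and not a bound site.

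**Figure D2:**
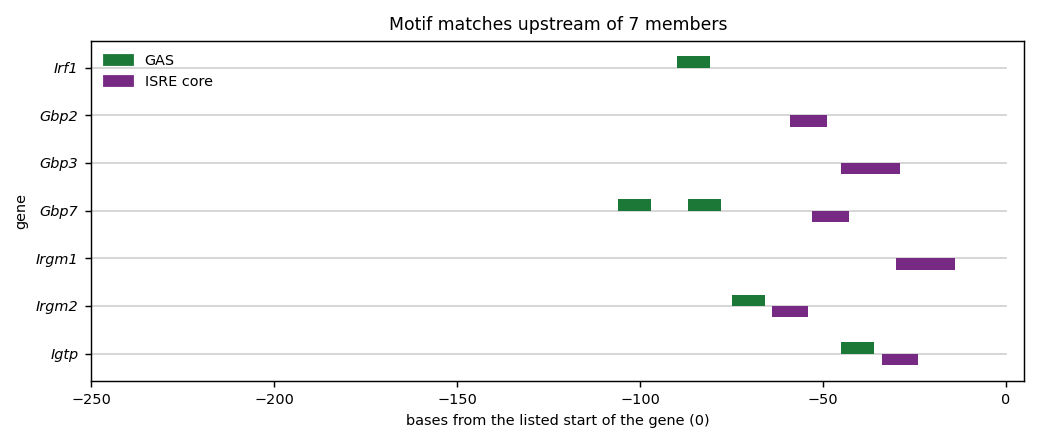
Positions of GAS and ISRE core matches in the 250 bases before the listed start of 7 members (x axis, bases from the start at 0, one line per gene). ISRE cores lie within 64 bases of the start in the 6 genes that have one, and the single match of Irf1 is a GAS.

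Irf1 (ENSMUSG00000018899, chromosome 11), the transcription factor, had the highest mean of the members in control and was second to Ifi47 in DIC. In control 2 it lay below Ifi47. It was at 40.4, 37.7 and 41.7 TPM in DIC 1 to 3 and at 73.7, 50.7 and 136 TPM in controls 1, 2 and 4. The DIC values lay within 4.02 TPM of each other, while the controls spread over 85.6 TPM, and the gap between the highest DIC and the lowest control library was 8.95 TPM. Its mean was 39.9 ± 2.05 TPM in DIC and 86.9 ± 44.3 TPM in control (SD, n = 3 each). The difference of -0.98 ± 0.33 (SE) on the log2 scale missed the threshold (limma adjusted p = 0.212). Control 2, the control richest in neutrophil transcripts, had the least Irf1 of the controls. Irf1 shares 135 exon bases with the antisense gene Gm17334, and strand use in counting is not stated. Without control 2 Irf1 had a log2 fold change of -1.31 and passed (limma adjusted p = 0.0326, over 16 alternative settings 0.0326 to 1.00), in a fit that called 8.45% of all genes lower. Without control 4 it was -0.60 (limma adjusted p = 0.448). With the neutrophil score of each library as a covariate its log2 fold change was -0.18. That score lay at 9.34 to 11.1 in DIC and at 6.99 to 9.10 in control, without overlap. Such a fit can hardly separate group from score, and no conclusion is drawn from it.

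Among the guanylate-binding members, Gbp3 (ENSMUSG00000028268, chromosome 3) had the largest log2 fold change, while Gbp7 differed most relative to its control SD (-2.92 for Gbp7 and -2.21 for Gbp3, difference of means over control SD on the log2 scale). Its level was 12.1, 15.4 and 14.9 TPM in DIC 1 to 3 and 36.6, 20.1 and 34.4 TPM in controls 1, 2 and 4. All 3 DIC libraries lay below the lowest control, which again was control 2. The means were 14.1 ± 1.77 TPM in DIC and 30.4 ± 8.97 TPM in control, with a log2 fold change of -1.01 ± 0.24 (limma adjusted p = 0.212). As for Irf1, leaving out control 2 brought Gbp3 past the threshold (-1.28, limma adjusted p = 0.0162, over 16 settings 0.0162 to 1.00). That fit called 8.45% of all tested genes lower. With the neutrophil covariate, which did not overlap between groups, its log2 fold change was -0.27.

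Gbp7 (ENSMUSG00000040253, chromosome 3) had a smaller fold change, and both of its groups were tight. It was at 13.7, 11.5 and 11.5 TPM in DIC 1 to 3, against 15.1, 18.0 and 18.8 TPM in controls 1, 2 and 4. No control reached down to DIC 1, the highest DIC library. Mean levels were 12.2 ± 1.29 TPM in DIC and 17.3 ± 1.97 TPM in control (-0.47 ± 0.16 as log2 fold change, limma adjusted p = 0.212). With the neutrophil covariate the log2 fold change was -0.61, under the limit given for Irf1. In the GRCm38 annotation Gbp7 shares 637 exon bases with the pseudogene Gm43802, so reads could be split between them.

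Gbp2 (ENSMUSG00000028270, chromosome 3) was scarcer, at 3.87, 3.60 and 3.66 TPM in DIC 1 to 3 and 3.69, 6.15 and 8.53 TPM in controls 1, 2 and 4. Control 1 sat among the DIC libraries and the other two controls above them. Its log2 fold change was -0.54 ± 0.28 (limma adjusted p = 0.31) with -0.81 without control 1 and -0.30 without control 4. Gbp9 (ENSMUSG00000029298, chromosome 5) was barely detected, at 1.78, 0.56 and 1.15 TPM in DIC 1 to 3 and 0.49, 0.86 and 1.20 TPM in controls 1, 2 and 4. Its groups overlapped widely (log2 fold change 0.20 ± 0.30, limma adjusted p = 0.723), and it shares 60 exon bases each with Gbp4 and Gbp8. Summed over the 4 genes, guanylate-binding transcripts came to 31.5, 31.1 and 31.2 TPM in DIC 1 to 3 and to 55.9, 45.1 and 62.9 TPM in controls 1, 2 and 4. The DIC sums were nearly equal to each other and lay below every control. Sums of the IRGs overlapped between groups. Regulators came to 43.4 to 49.0 TPM in DIC and 40.6, 66.8 and 95.0 TPM in controls 1, 2 and 4. Effectors came to 50.7 to 63.7 TPM in DIC and 63.0, 84.2 and 99.5 TPM in controls 1, 2 and 4.

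Of the regulatory IRGs, Igtp (ENSMUSG00000078853, chromosome 11) was at 15.0, 13.1 and 15.4 TPM in DIC 1 to 3 and at 16.2, 21.9 and 30.2 TPM in controls 1, 2 and 4. The groups were apart by only 0.85 TPM, between DIC 3 and control 1. Its mean was 14.5 ± 1.20 TPM in DIC and 22.8 ± 7.05 TPM in control (-0.58 ± 0.23 as log2 fold change, limma adjusted p = 0.228). Without control 4 its log2 fold change was -0.36. Irgm1 (ENSMUSG00000046879, chromosome 11) was held within 1.12 TPM in DIC, at 26.6, 26.1 and 27.2 TPM, while controls 1, 2 and 4 had 22.4, 37.5 and 60.0 TPM. One control lay below and the other two above all DIC libraries, so that its log2 fold change of -0.46 ± 0.32 (limma adjusted p = 0.435) depended on which control was kept. It was -0.81 without control 1 and -0.12 without control 4.

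Irgm2 (ENSMUSG00000069874, chromosome 11), the third regulator, did not follow Igtp and Irgm1. It measured 7.40, 4.19 and 5.85 TPM in DIC 1 to 3 and 2.06, 7.37 and 4.83 TPM in controls 1, 2 and 4. The groups overlapped, apart from control 1, which was lowest of all libraries (log2 fold change 0.33 ± 0.39, limma adjusted p = 0.648). Without control 1 the value was -0.064, so Irgm2 has no settled direction. It was -0.65 with the neutrophil covariate, which did not overlap between groups. Irgm2 and Igtp are neighbours on chromosome 11 whose annotated transcripts share 162 exon bases, and the division of those reads was made by the authors' quantification. Their summed level was 22.4, 17.3 and 21.2 TPM in DIC 1 to 3 and 18.3, 29.3 and 35.1 TPM in controls 1, 2 and 4. In that sum control 1 falls among the DIC libraries. The ratio of Igtp to Irgm2 was 2.03 to 3.13 in DIC, against 7.87, 2.97 and 6.26 in controls 1, 2 and 4.

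Both effectors had lower means in DIC, and in both control 1 sat within the DIC range. Ifi47 (ENSMUSG00000078920, chromosome 11), the most abundant of the GTPases, was at 50.0, 61.9 and 62.1 TPM in DIC 1 to 3 and at 62.0, 80.9 and 95.2 TPM in controls 1, 2 and 4. Only 0.06 TPM of overlap between DIC 3 and control 1 kept it from the genes that separate the groups. Its log2 fold change was -0.43 ± 0.18 (limma adjusted p = 0.247). Ifi47 shares 111 exon bases with Olfr56 and 106 with Gm12188. Iigp1 (ENSMUSG00000054072, chromosome 18) was rare, at 0.70, 1.15 and 1.63 TPM in DIC 1 to 3 and 0.99, 3.31 and 4.35 TPM in controls 1, 2 and 4 (log2 fold change -0.75 ± 0.40, limma adjusted p = 0.325). Without control 1 it was -1.18 and without control 4 -0.46. At such levels the log2(TPM + 1) scale understates the change.

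The controls also differed among themselves. Control 4 was the highest control for 8 of 10 members and control 1 the lowest for 8, where over all tested genes these shares were 30.9% and 31.1%. On the log2(TPM + 1) scale the control range was wider than the DIC range for 9 of 10 members, as for 66.7% of tested genes. For Irf1 the highest control was 2.69 times the lowest, while the highest DIC library was 1.11 times the lowest. Irgm1 gave 2.68 times in control and 1.04 times in DIC. Leaving out control 1 left 8 of 10 members lower in DIC without overlap, where 23.7% of tested genes were, with a median log2 fold change of -0.80, although limma then still called 0 members (8 at an unadjusted p under 0.05, where 11.4% of tested genes were). Gbp9 and Irgm2 were the other two.

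**Figure D3:**
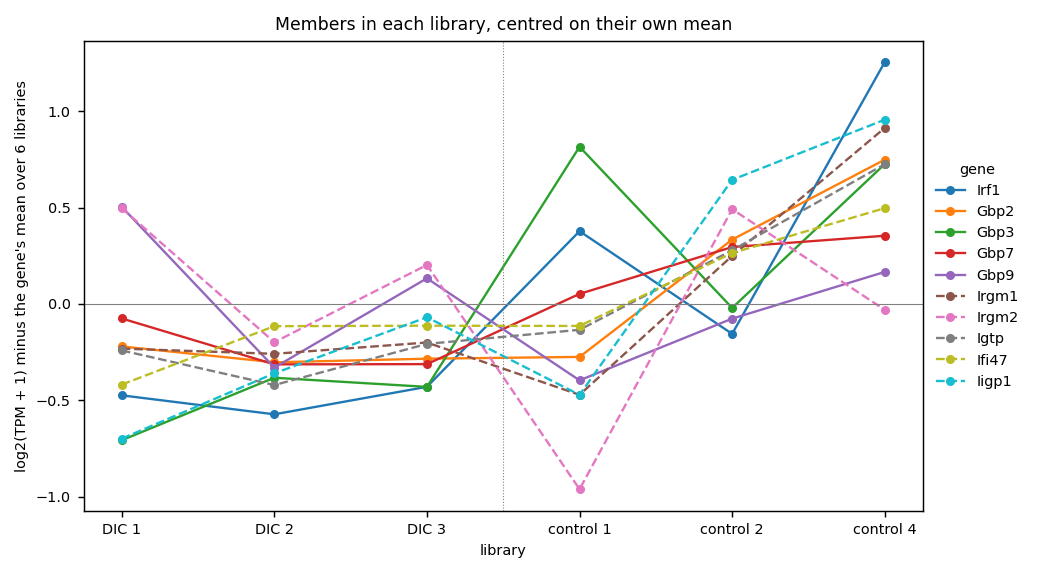
Level of each member on the log2(TPM + 1) scale after subtracting its mean over the 6 libraries (y axis), by library (x axis), with one line per gene, solid for Irf1 and the guanylate-binding proteins and dashed for the IRGs. Lines lie close together in DIC 2 and DIC 3, fan out in control 1, where Gbp3 and Irf1 are high and Irgm2 low, and are mostly highest in control 4.

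The order of the controls differed between members. Irf1 and Gbp3 were high in controls 1 and 4 and lower in control 2 (Pearson r between them 0.88 over 6 libraries). Gbp2, Gbp7, Gbp9, Irgm1, Igtp, Ifi47 and Iigp1 were instead lowest of the controls in control 1, higher in control 2 and highest in control 4. Irgm2 had neither order and was highest of the controls in control 2. Among the genes of the second order r was 0.98 for Gbp2 with Igtp, 0.73 for Gbp7 with Irgm1 and -0.15 for Gbp9 with Ifi47. Across the orders it was 0.84 for Irf1 with Igtp and 0.39 for Gbp3 with Irgm1. These correlations over 6 libraries describe 1 set of TPM values that share one scaling. The ratio of Irf1 to the summed GTPases was 0.31, 0.27 and 0.29 for DIC 1 to 3, against 0.46, 0.26 and 0.53 for controls 1, 2 and 4. Control 2 thus lay slightly below all DIC ratios.

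The other guanylate-binding proteins were scarce. Gbp2b and Gbp11 were listed at 0 in all 6 libraries, and 3 of 7 could be tested. Gbp10 was listed at 0 in all DIC samples, against 0.09, 0.41 and 0.53 TPM for controls 1, 2 and 4. In the GRCm38 annotation Gbp10 and Gbp6 share 1792 and 1726 exon bases with Gm43302, so reads could be split between these genes. Of the 3 tested 0 were called, and Gbp5, known for inflammasome activation, was at 0.95, 0.46 and 0.86 TPM in DIC and 1.87, 1.45 and 1.57 TPM in control without overlap (limma adjusted p = 0.226). Gbp6 also separated without overlap (log2 fold change -0.62), at 0.39 to 1.03 TPM in DIC and 1.09 to 3.11 TPM in control. Gbp8 did not (-0.25). Of all tested genes, 18.4% were lower without overlap. Among other interferon-inducible GTPases 7 of 11 were tested, 0 were called, 6 had negative fold changes and the median was -0.77. Tgtp2, an IRG effector, was at 22.8, 18.7 and 24.9 TPM in DIC 1 to 3 and at 20.0, 53.1 and 74.2 TPM in controls 1, 2 and 4. It followed the order of Irgm1, with control 1 at the DIC level. Its near-identical neighbour Tgtp1, chosen after its values were seen, had the same order, and reads can be shared between them. Gm4951, Gm4070 and Gvin1 had log2 fold changes of -0.89, -1.01 and -0.77 and overlapping groups.

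Components upstream of the GTPases had a median nearer to 0. Of 12 genes of the interferon-gamma receptor and its signalling 11 were tested and 0 were called, with a median log2 fold change of -0.17. Socs1 and Cish, 2 of the 11, were lower without overlap, as were 18.4% of all tested genes. The ligand gene Ifng was below the filter, at 0.05, 0 and 0.06 TPM in DIC 1 to 3 and at 1.81, 0 and 2.42 TPM in controls 1, 2 and 4. It was thus seen at over 1 TPM in controls 1 and 4, in which Irf1 and Gbp3 were highest. For 8 of 10 members, however, control 1 was the lowest control. A link between Ifng and the members was not tested. Receptor chain Ifngr1 measured 268 ± 23.7 TPM in DIC and 306 ± 64.0 TPM in control, and Ifngr2 measured 23.2 ± 3.66 TPM in DIC and 28.5 ± 2.63 TPM in control. Socs1, which inhibits Jak kinases, was low in both groups, at 0.69 to 0.96 TPM in DIC and 1.25 to 2.00 TPM in control (-0.52 ± 0.22 as log2 fold change, limma adjusted p = 0.249). Another feedback gene, Cish, had -0.91, Ptpn2, a phosphatase, -0.25 and Jak1 0.39, none past the threshold.

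Other interferon regulatory factors were mixed. Of 14 genes 10 were tested, 0 called, and 2 were lower in DIC without overlap, as were 18.4% of all tested genes. Irf8, a factor of the monocyte and dendritic lineages, was at 48.7, 75.5 and 61.1 TPM in DIC 1 to 3 and at 184, 94.5 and 161 TPM in controls 1, 2 and 4, the order of controls seen for Gbp3 (log2 fold change -1.20 ± 0.27, limma adjusted p = 0.212). Nlrc5, the activator of MHC class I genes, was at 6.76 to 8.45 TPM in DIC and 10.3 to 18.8 TPM in control. Irf2, an antagonist of Irf1 at shared elements, was at 24.9 ± 3.52 TPM in DIC and 24.4 ± 5.47 TPM in control (log2 fold change 0.04 ± 0.20). Irf9 measured 21.9 to 28.2 TPM in DIC and 20.5, 24.7 and 58.9 TPM in controls 1, 2 and 4, with control 4 alone set apart. Irf5 and Stat2 had log2 fold changes of -0.72 and 0.29 with overlapping groups.

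A list of other interferon-gamma targets was mostly lower in DIC. Of 17 tested among 20, 16 had negative fold changes, 10 were lower in DIC without overlap and the median was -0.74, with 0 called. Of all tested genes, 18.4% were lower without overlap. Its 4 genes with the lowest p were the peptide transporter subunit Tap1, the immunoproteasome subunit Psmb9, the proteasome activator Psme2 and the serpin Serpina3g. Serpina3g was at 18.8, 29.5 and 23.0 TPM in DIC and 41.3, 53.1 and 70.9 TPM in controls 1, 2 and 4 (log2 fold change -1.17 ± 0.24, limma adjusted p = 0.212). Psmb9 measured 111 ± 4.17 TPM in DIC and 193 ± 26.2 TPM in control, Psme2 199 to 241 TPM in DIC and 314 to 437 TPM in control, and Tap1 had a log2 fold change of -0.74. The list was drawn up with earlier results of these data known, so its direction is no independent support.

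Genes with which the GTPases act were also measured. Autophagy conjugation proteins place IRGs and GBPs on vacuoles. All 14 genes of that list were tested, 0 were called, and the median was -0.12. In it 3 genes were lower and 1 higher without overlap, beside 18.4% and 7.08% of all tested genes. Gabarapl1 was at 19.1, 18.8 and 23.4 TPM in DIC and 39.7, 29.4 and 46.3 TPM in controls 1, 2 and 4 (log2 fold change -0.86 ± 0.19, limma adjusted p = 0.212). The cargo receptor Sqstm1 and the ubiquitin enzyme Ube2n were also lower without overlap (-0.57 and -0.29), and Atg7 was the one gene of the list higher without overlap (0.37). Of 8 inflammasome partners, all tested, 0 were called and 3 were lower without overlap, Pycard, Casp1 and Aim2, with log2 fold changes of -0.58, -0.54 and -0.39. Nlrp3 overlapped (-0.94). In all 6 of the 8 had negative and 2 positive fold changes, with a median of -0.47. Il1b, the cytokine that inflammasomes release and chosen here after its values were seen, was at 89.6, 4.69 and 45.8 TPM for DIC 1 to 3, against 7.91, 3.22 and 10.7 TPM for controls 1, 2 and 4 (1.93 ± 0.97 as log2 fold change, limma adjusted p = 0.305). Its groups overlapped.

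**Figure D4:**
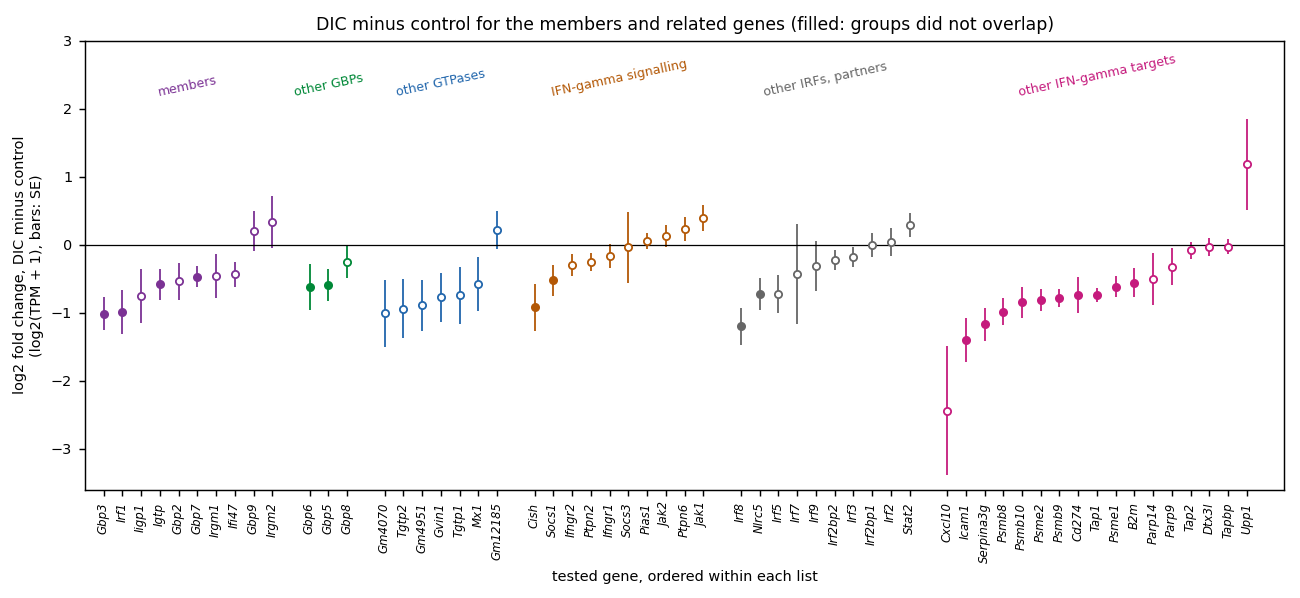
Log2 fold change of DIC minus control on the log2(TPM + 1) scale with SE bars (y axis) for the members and tested genes of 5 of the 7 related lists, without autophagy and inflammasome genes (x axis, ordered within each list), filled where the groups did not overlap. Most points lie below 0, and among the members Gbp9 and Irgm2 lie above it.

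Markers of other cells also differed in level between the groups, and their part in these results was not tested. Of all tested genes, 7.08% were higher and 18.4% lower in DIC without overlap. All 15 neutrophil markers were tested and 12 were higher in DIC without overlap. After removing them and rescaling TPM, Irf1 and Gbp3 still separated the groups (log2 fold changes -0.78 and -0.82), whereas Gbp7 and Igtp overlapped (-0.28 and -0.39). The members' median was then -0.33 beside 0.10 over all genes, and 8.09% of tested genes were lower without overlap. In the basophil and mast cell list 5 of 7 markers were lower in DIC without overlap, with summed levels of 430 to 597 TPM in DIC and 1021 to 3456 TPM in control. Control 4, the highest for most members, was also highest in that sum. Control 2 was lowest in it, at 1021 TPM, and control 1 was at 1622 TPM, whereas control 1 was the lowest control for 8 members. Of the T and NK cell list 3 of 12 were lower without overlap, and its sums were 1321 to 1792 TPM in DIC and 1773 to 2242 TPM in control. Nearly all of that was Nkg7, and the other 11 markers summed to 18.6, 10.3 and 18.4 TPM for DIC 1 to 3, against 20.0, 25.6 and 36.7 TPM for controls 1, 2 and 4. The natural killer gene Ncr1 was at 0.79 to 2.56 TPM in DIC and 2.72 to 5.69 TPM in control, and Klrb1c was at 0.53 to 1.27 TPM in DIC and 1.79 to 3.21 TPM in control. Both were highest in control 4. The T cell genes Cd3e and Trac were listed at 0 in DIC 2 but at 1.09 and 1.28 TPM in DIC 1. In control Cd3e was at 0.05 to 1.57 TPM and Trac at 0.27 to 0.42 TPM. Cd3d was at 0.89 to 2.08 TPM in DIC and 0.61 to 0.98 TPM in control.

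The remaining marker lists were as follows, beside 18.4% of all tested genes lower and 7.08% higher without overlap. Stem and progenitor markers, 2 of 10 lower without overlap, summed to 353 to 411 TPM in DIC and 472 to 548 TPM in control. Monocyte and macrophage markers, 1 of 9 lower, summed to 4868 to 5196 TPM in DIC and 4540 to 7355 TPM in control. Dendritic cell markers, 3 of 7 lower, summed to 8.81 to 14.2 TPM in DIC and 15.5 to 21.1 TPM in control, and B cell and plasma cell markers, 4 of 9 lower, to 214 to 242 TPM in DIC and 210 to 464 TPM in control. Erythroid markers, 2 of 9 higher without overlap, summed to 437 to 1386 TPM in DIC and 378 to 469 TPM in control. Megakaryocyte markers, 2 of 6 higher and with 3 positive and 3 negative fold changes, summed to 222 to 249.7 TPM in DIC and 99.8 to 193 TPM in control. Most of that sum was Pf4, at 183 to 211 TPM in DIC and 77.2 to 161 TPM in control. Endothelial and stromal markers, with 0 of 7 tested, summed to 1.26 to 1.87 TPM in DIC and 1.04 to 2.05 TPM in control.

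Outside the list, the 6 genes whose pattern was most like that of the members were taken. Likeness was Pearson's r over the 6 libraries between a gene's log2(TPM + 1) and the members' mean after centring each, among 9166 named genes with a mean of at least 5 TPM. Rnpc3 reached 0.988, Spag9 and Chpt1 0.983 each, Fbxl12 and Zfp87 0.980 each and Btd 0.979. Spag9 was at 10.7, 10.7 and 11.2 TPM in DIC 1 to 3 and at 11.0, 15.2 and 24.9 TPM in controls 1, 2 and 4. With 6 points and so many genes such values describe these libraries alone.

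**Figure D5:**
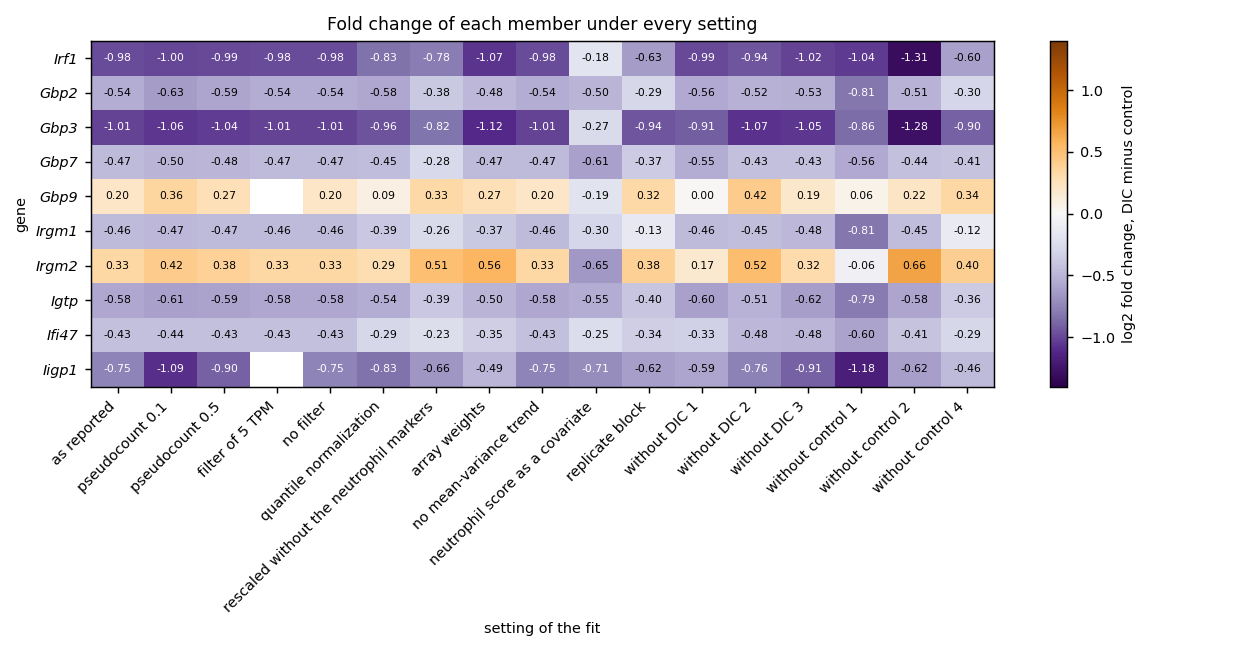
Log2 fold change of DIC minus control for each member (rows) under the reported fit and 16 alternatives (columns), with the value written in each cell and coloured from purple (lower in DIC) to orange (higher in DIC), and blank where a filter removed the gene. Irf1, Gbp2, Gbp3, Gbp7, Irgm1, Igtp, Ifi47 and Iigp1 stay negative in all columns that hold them, while Irgm2 turns negative in 2 and Gbp9 in 1.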

How the data were processed

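RNA of sorted LSK cells was sequenced from SMART-Seq low-input libraries, per the labels' protocols. The submitters' processing notes name fastp 0.19.5, HISAT2 2.1.0, StringTie 2.1.2 and the build GRCm39. No source used here names the annotation release. The authors deposited TPM values, each column summing to 1000000, and TPM retains no depth, so no counting interval is given. No value column was left unused. Library numbers are those of the columns, since the title and description of 1 control sample carry different numbers and controls 1 and 4 could not be tied to single samples. The 15 pairwise correlations of log2(TPM + 1) lay between 0.907 and 0.964, and no 2 libraries were identical.

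Symbols were looked up by gene identifier in a table of mouse gene names, which named 52081 rows and left 4669 unnamed, and chromosomes and shared exon bases were read from a GENCODE annotation of GRCm38. Coordinates are given only for RefSeq promoter windows in GRCm38.p6. Genes reaching 1 TPM in 3 or more libraries were fitted as log2(TPM + 1) on group with limma 3.58.1 (R 4.3.3, mean-variance trend, two-sided, Benjamini-Hochberg over 13496 genes, threshold 0.05). The fit was tested on simulated data. SD is the spread of TPM and SE the moderated standard error of the log2 fold change. The neutrophil score is the mean log2(TPM + 1) of the 15 markers. It did not overlap between the groups, so a fit with it as a covariate can hardly separate group from score. Upstream windows were aligned with Biopython 1.88.

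Named genes were all members, in each related list up to 4 tested genes with the lowest p, fixed genes of interferon-gamma signalling, the sort and granulocytes, and the 6 genes most like the members. Tried as alternatives were other pseudocounts, filters and scalings, array weights, no trend, the neutrophil covariate, a block on the column number and leaving out each library. Members and lists were chosen with earlier results of these data known. In the interferon-gamma signalling list, 1 gene is counted but not reported here.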

Additional observations from a re-analysis of the deposited data

How the results depend on the processing

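Of 158 fold changes of single members under alternative settings, 153 kept their direction and side of the threshold. Irf1 and Gbp3 passed without control 2, and Gbp9 and Irgm2 turned negative with the neutrophil covariate (-0.19 and -0.65), as did Irgm2 without control 1 (-0.064). Leaving out 1 library, Irgm2 ran from -0.064 to 0.66. Limma called 0 members in every setting except without control 2. There it called 2 members, beside 8.45% of all tested genes called lower. The number was thus 0 to 2 over the libraries left out. Over the libraries left out, 4 to 8 members were lower without overlap (8 without control 1), as were 21.3% to 30.9% of tested genes. After rescaling without neutrophil markers 2 members were, beside 8.09% of tested genes. Elsewhere 4 or 5 members were, beside 9.78% to 21.4% of tested genes. The members' median log2 fold change was -0.80 to -0.33 over the libraries left out. Over all genes 5 were called higher and 3 lower, 5 in all (2 higher and 3 lower) with a pseudocount of 0.1 or a filter of 5 TPM, 0 without a filter (3241 at an unadjusted p under 0.05) and 0 with the neutrophil covariate (309), and 5 higher and 1 lower after quantile normalization. Without 1 library the number ran from 0 (DIC 1 or control 4) to 1671 (control 2). After rescaling, 13.3% of genes were higher and 8.09% lower without overlap, against 7.08% and 18.4% as deposited. The column names repeat numbers 1 and 2 across groups. Same-numbered libraries deviated from their group means with correlations of -0.07 and -0.10. These values gave no sign of pairing, but with 3 libraries per group they cannot exclude it. The replicate block on those numbers called 8 genes and 0 members, with a member median of -0.35. DIC 3 and control 4 share their numbers with no other library. The fold changes of that fit thus rest on the libraries numbered 1 and 2 alone. The cause of each shift was not tested. Depth is unknown, so the counting error of low values such as those of Gbp9 cannot be given.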
